A study of Mus musculus with 20 samples.

Results

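The inhibitors and feedback regulators of NF-kB were described here by the acetylated chromatin around their genes. The set holds 10 genes of 21887 protein-coding genes: Nfkbia, Nfkbib, Nfkbie, Nfkbiz and Bcl3 of the IkB family, Tnfaip3, Tnip1, Otulin and Cyld of the ubiquitin machinery, and Commd1. Members were chosen by their role in the pathway and by the H3K27ac values reported below, which were known when the list was made, so the values are given as a description with no test. For each gene, all H3K27ac peaks that overlap its GRCm38 span plus 25 kb on either side were taken, with 100 kb for Nfkbiz.

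The cells were RAW264.7, a transformed mouse macrophage line that is labelled as monocyte-derived and that forms osteoclasts when given the cytokine RANKL. The measurement was ChIP-seq of histone H3 acetylated at lysine 27 (H3K27ac), which marks promoters and enhancers in use. There are 3 libraries of untreated cells and 3 of cells kept for 4 h in RANKL at 50 ng/ml. A further 3 come from cells that received RANKL together with I-BET (500 nM), a blocker of the BET bromodomain proteins, over the same 4 h, and 1 library, numbered 3, from cells with I-BET and no RANKL. All 10 libraries come from 1 cell line, and the labels do not say that replicates came from separate cultures, so the spread between them may be technical. The other 10 of the 20 samples are input DNA and were not analysed here. In each case below, less of the mark per cell and fewer cells with the mark cannot be told apart.

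NF-kB dimers wait in the cytoplasm bound to IkB proteins. RANKL, like other activators, leads the IKK kinases to mark IkB for destruction, and the freed dimers enter the nucleus and switch on their own inhibitors. Newly made IkB-alpha recaptures the dimers, while A20 and its partners trim the ubiquitin chains on which the signal is built. In osteoclast precursors this loop shapes a signal that cells need to differentiate.

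Several of these genes are textbook targets of NF-kB, and their promoters were searched for its motif. RefSeq promoters on GRCm38.p6, which run from 250 bases before to 50 bases after the start, were matched for 9 of the 10 members. The 10-letter kappa B consensus, searched on both strands, matched in 6 of the 9, and in 1549 of 17492 promoters of the same length (8.86%). Matches of neighbouring or opposite-strand sites that overlap were merged. The shorter AP-1 motif TGANTCA (N is any base), also searched on both strands, matched in the promoters of Nfkbie and Tnfaip3 and in 7.08% of all promoters. Each match describes letters in this window and not binding. The starts of all 9 lay in a peak in only some of the libraries. Whole promoters are shown for Nfkbia, the classical feedback gene, for Nfkbie and Tnfaip3, and for Commd1, which had no match. All run 5′ to 3′ along the gene, with the kappa B match in capitals.

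Nfkbia, chr12:55492598-55492897, minus strand: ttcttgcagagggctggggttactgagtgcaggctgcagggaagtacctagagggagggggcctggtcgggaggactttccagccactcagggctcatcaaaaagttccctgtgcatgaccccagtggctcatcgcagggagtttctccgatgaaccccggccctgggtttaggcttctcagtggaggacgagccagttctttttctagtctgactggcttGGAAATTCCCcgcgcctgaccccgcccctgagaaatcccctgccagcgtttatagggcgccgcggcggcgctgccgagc
Nfkbie, chr17:45555450-45555749, plus strand: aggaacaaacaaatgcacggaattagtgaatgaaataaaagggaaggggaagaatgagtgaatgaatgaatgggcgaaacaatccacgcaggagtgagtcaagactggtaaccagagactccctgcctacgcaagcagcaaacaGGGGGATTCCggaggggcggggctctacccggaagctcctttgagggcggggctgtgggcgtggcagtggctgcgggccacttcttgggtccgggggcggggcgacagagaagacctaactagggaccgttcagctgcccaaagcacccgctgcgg
Tnfaip3, chr10:19015361-19015660, minus strand: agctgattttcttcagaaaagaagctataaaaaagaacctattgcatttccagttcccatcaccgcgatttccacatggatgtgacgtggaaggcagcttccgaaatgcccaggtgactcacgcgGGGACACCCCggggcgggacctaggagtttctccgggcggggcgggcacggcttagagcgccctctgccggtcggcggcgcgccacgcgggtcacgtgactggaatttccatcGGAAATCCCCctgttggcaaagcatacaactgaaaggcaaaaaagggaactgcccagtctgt
Commd1, chr11:22982235-22982534, minus strand: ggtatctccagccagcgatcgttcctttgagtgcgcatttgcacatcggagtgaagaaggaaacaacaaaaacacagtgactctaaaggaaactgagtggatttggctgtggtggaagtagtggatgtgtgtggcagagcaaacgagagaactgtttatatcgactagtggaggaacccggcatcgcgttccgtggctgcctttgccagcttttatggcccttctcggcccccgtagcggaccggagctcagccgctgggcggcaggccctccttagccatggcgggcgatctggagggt

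The matches of Bcl3, Tnip1 and Cyld are shown in short stretches from the same promoters, because their sites differ in form and in distance from the start.

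Bcl3: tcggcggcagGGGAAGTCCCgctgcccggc
Tnip1: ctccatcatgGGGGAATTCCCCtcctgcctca
Cyld: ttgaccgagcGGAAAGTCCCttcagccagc

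The Tnip1 stretch carries a symmetrical run of 12 bases, at positions -58 to -47 (counting the first transcribed base as 0), in which several overlapping windows match. Nfkbia has its match at positions -29 to -20, and Nfkbie at -106 to -97. Tnfaip3 has 2 matches, at -125 to -116 and at -12 to -3. In Bcl3 the match lies just inside the transcript, at positions 2 to 11. The Cyld match is the farthest out, at -155 to -146. The promoters also differed in CpG content: Tnip1 holds 4 CpG sites and Otulin 31, with a median of 13 over all promoters.

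Libraries stood apart in the length of their peak lists. RANKL 2 held 141905 peaks over 184.6 Mb, and RANKL+I-BET 2 held 6041 peaks over 3.44 Mb. The other 8 libraries ran from 9893 peaks and 7.79 Mb in untreated 2 to 17794 peaks in RANKL 1 and 25.9 Mb in RANKL 3. Marker genes were searched only within 1 kb of each gene end, so peaks farther inside a gene were not counted. The list of RANKL 2 covered ends of genes that macrophages do not use. There, 8 of 8 lymphocyte, 3 of 6 fibroblast and osteoblast and 6 of 8 other-tissue markers had a peak at an end, against 0 to 1, 0 and 0 elsewhere. Macrophage markers had such a peak in 6 (RANKL+I-BET 2) to 10 of 10. Libraries numbered 2 are therefore given with each value and then left out. The part of list length in the results was not tested beyond the settings named.

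**Figure D1:**
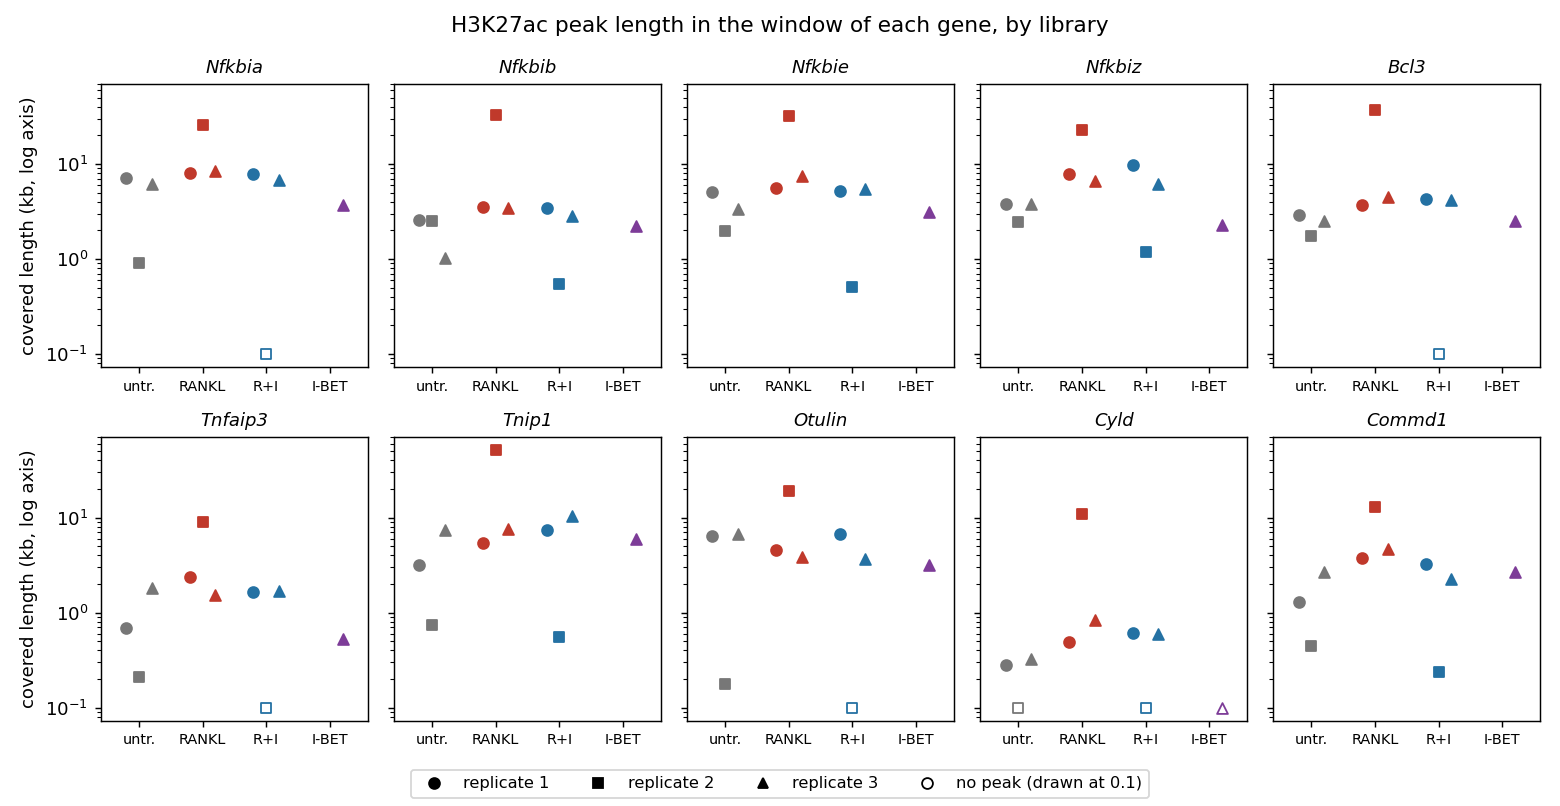
Length of the window covered by H3K27ac peaks (kb, log axis) for each member in each of the 10 libraries, with 1 point a library and the shape giving its number. R+I is RANKL with I-BET, and open points at the bottom had no peak. RANKL 2 is the highest point for each of the 10 members, and for Nfkbia RANKL 1 and 3 sit at 8.03 and 8.44 kb against 7.20 and 6.15 kb in untreated 1 and 3.

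Genes of the IkB proteins that hold NF-kB in the cytoplasm carried acetylation at or near the gene. For all 3 the covered length in every RANKL library was above that in every untreated library. So it was for 33.3% of all genes, and 51.4% of those covered in every library not numbered 2. At one length for all lists the log2 difference from untreated was 0 for Nfkbia, whose window then held no peak in any library. It was -0.40 for Nfkbib, with peaks left in untreated 2 (1.913 kb) and RANKL 1 (0.553 kb). For Nfkbie it was -0.34, and of the untreated and RANKL libraries only untreated 3 kept a peak (0.516 kb). With libraries 2 left out as well, the difference was 0.06, 0.72 and -1.46 for these 3 genes. RANKL 1 then kept no peak at Nfkbie. Nfkbia encodes IkB-alpha, the inhibitor that NF-kB induces to end its own signal. Its window was covered over 7.20, 0.913 and 6.15 kb in untreated 1 to 3, over 8.03, 25.7 and 8.44 kb in the RANKL libraries, and over 7.84, 0 and 6.83 kb in the RANKL+I-BET libraries. Every RANKL value lay above every untreated value and above every RANKL+I-BET value. Without libraries 2 the margin between the lowest RANKL and the highest untreated value was 8.03 against 7.20 kb, and the mean difference was 0.29 on the log2(bp + 500) scale. With I-BET alone 3.69 kb was covered, against 6.15 kb in untreated 3.

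Nfkbia has no other gene in its window, so its peaks can be followed one by one. A domain from chr12:55488957-55493949 spanned the whole gene, which itself is 3.24 kb long. The peak over the start was 1.35 kb wide in untreated 1, 3.40 kb in untreated 3, 5.04, 6.43 and 4.87 kb in the RANKL libraries, 4.82 and 4.15 kb in RANKL+I-BET 1 and 3 and 3.69 kb in the I-BET library. Every RANKL peak over the start was thus wider than each of the other start peaks. In untreated 1, however, a second peak lay beside the start peak, from 0.92 to 3.56 kb into the gene. The domain as a whole was covered over 3.99, 0.639 and 3.40 kb in untreated 1 to 3. In RANKL 1 to 3 it was covered over 4.99, 4.83 and 4.87 kb. Downstream, on the side away from the start, chr12:55464569-55467568 was held by all libraries but RANKL+I-BET 2 and I-BET 3, with folds of 1.61 to 3.50. Folds here and below are the authors' own enrichment values, and they rank peaks within a list only. Median folds name 1 region a window and are taken over whichever libraries hold the region, so they are not on one scale between regions. The region chr12:55473433-55474570, which had the highest median fold of the window (2.88), was held by 6 libraries and was also missing from I-BET 3. Thus the I-BET library kept the domain over the gene and listed neither downstream region.

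Nfkbib encodes IkB-beta, a slower-acting relative of IkB-alpha. The covered length was 2.55, 2.51 and 1.02 kb untreated, 3.56, 32.5 and 3.42 kb in the RANKL libraries, 3.43, 0.549 and 2.85 kb in the RANKL+I-BET libraries, and 2.21 kb in the I-BET library. RANKL values did not overlap the untreated ones, while RANKL+I-BET 1 (3.426 kb) lay just above RANKL 3 (3.423 kb). The start lay in a peak in untreated 2, in all 3 RANKL libraries and in RANKL+I-BET 1, with widths of 1.91, 2.17, 3.16, 1.95 and 2.16 kb. Peaks of the region over the start (chr7:28764796-28767134) also existed in untreated 1, RANKL+I-BET 3 and I-BET 3, but stopped short of the start itself. The window holds 6 other genes, among them Sirt2 and Sars2, so its covered length is not that of Nfkbib alone. Upstream, chr7:28780333-28781306 had the highest median fold (2.96) and was held by 6 libraries, with 4.36, 2.88 and 4.31 in RANKL 1 to 3.

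Nfkbie encodes IkB-epsilon, an inhibitor that NF-kB itself induces with a delay. Covered lengths were 5.11, 1.97 and 3.36 kb untreated, 5.58, 31.8 and 7.57 kb in the RANKL libraries, 5.20, 0.51 and 5.41 kb in the RANKL+I-BET libraries, and 3.15 kb in the I-BET library. RANKL stood above both other groups without overlap. Its start was the 1 start of the 9 listed that lay in a peak in every RANKL and no untreated library. That pattern was met by 4.04% of the 11292 genes with a start in a peak in at least 1 library. The start peaks were 2.53, 5.99 and 2.86 kb wide with RANKL and 2.10 kb in RANKL+I-BET 1, and none of the other libraries had one. In RANKL+I-BET 3 a peak began just past the start. The region that contains them, chr17:45554873-45557958, was nevertheless touched in every untreated library, over 0.654, 0.984 (in separate peaks) and 0.458 kb of its length, so acetylation next to the start was listed before RANKL. The region with the highest median fold, chr17:45583151-45586135 at 2.65, lies beyond the end of Nfkbie and overlaps Slc29a1. The window holds 5 other genes, among them Slc29a1 and Hsp90ab1, a heat shock protein gene.

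**Figure D2:**
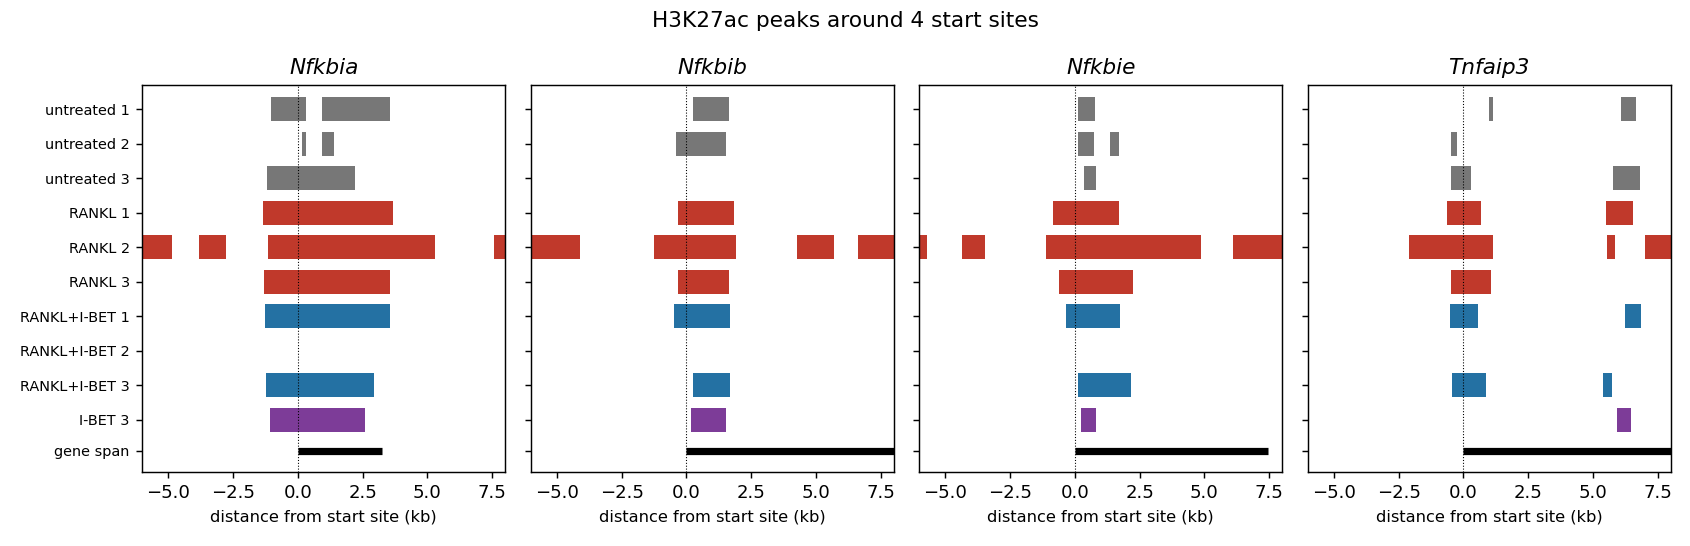
H3K27ac peaks around the starts of Nfkbia, Nfkbib, Nfkbie and Tnfaip3, drawn to scale against distance from the start (kb, dotted line at the start, positive into the gene). Each bar is 1 peak of the library named at the left and the black bar is the gene; the Nfkbie start is covered in the 3 RANKL libraries (2.53, 5.99 and 2.86 kb wide) and in RANKL+I-BET 1 (2.10 kb).

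Nuclear members of the IkB family work with NF-kB on the DNA rather than in the cytoplasm, and both genes were covered further in the RANKL libraries at the deposited list lengths. At one length for all lists the difference from untreated was -1.33 for Nfkbiz and -0.40 for Bcl3. At Bcl3 only untreated 2 then kept a peak (0.655 kb) among the untreated and RANKL libraries. With libraries 2 left out as well, the difference was -1.20 for Nfkbiz and 0.52 for Bcl3. Nfkbiz encodes IkB-zeta, an inducible co-activator of secondary response genes. Its window of 227.6 kb was covered over 3.81, 2.46 and 3.76 kb untreated, 7.85, 22.8 and 6.71 kb in the RANKL libraries, and 9.74, 1.20 and 6.13 kb in the RANKL+I-BET libraries. RANKL exceeded untreated in every pairing, and so did RANKL+I-BET 1 and 3. I-BET alone gave 2.28 kb, below each untreated library.

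At Nfkbiz 1 region was held by every RANKL library and by no untreated one: chr16:55733624-55734894, about 77 kb below the lower end of the gene. Its folds were 2.47, 4.51 and 2.02 with RANKL, 2.81, 5.33 and 1.73 with RANKL and I-BET, and 2.495 with I-BET alone. The region was therefore listed in each of the 7 treated libraries, also without RANKL, and in RANKL+I-BET 2, whose list is the shortest. Within the gene, chr16:55837588-55839381 was held by all 10 libraries, with folds of 1.82 to 4.48. The second region inside the gene, chr16:55819636-55822568, was covered over 2.90, 1.59 and 1.98 kb in the RANKL libraries against 1.56, 0.816 and 1.41 kb untreated. The highest median fold (4.16) belonged to a short region, chr16:55731290-55731399, held by RANKL 2 and RANKL+I-BET 1 alone. No start is listed for Nfkbiz, so none of these was placed against it. The window also takes in Cep97 and Nxpe3.

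Bcl3 encodes a nuclear partner of the p50 and p52 dimers. Its window was covered over 2.91, 1.73 and 2.54 kb untreated, 3.74, 36.6 and 4.52 kb in the RANKL libraries, 4.33, 0 and 4.14 kb in the RANKL+I-BET libraries, and 2.51 kb in the I-BET library. All RANKL values lay above all untreated values, and RANKL+I-BET 1 and 3 lay between RANKL 1 and RANKL 3. The region over the start, chr7:19821904-19824794, was covered over 2.40, 2.89 and 2.33 kb in the RANKL libraries, 2.17 and 2.502 kb in RANKL+I-BET 1 and 3, and 1.20, 0.784 and 1.86 kb untreated. Upstream, chr7:19844420-19845136 had the highest median fold (2.58) and was found in RANKL 2, RANKL 3 and RANKL+I-BET 3.

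The ubiquitin editors gave a less even picture: of Tnfaip3, Tnip1, Otulin and Cyld, the covered length of Cyld alone stood above every untreated library in every RANKL library. Within libraries of the same number Tnip1 was also higher with RANKL in each of the 3 pairs. Tnfaip3 encodes A20, which removes and rebuilds ubiquitin chains on signalling adaptors. It had little coverage: 0.694, 0.208 and 1.81 kb untreated, 2.36, 9.0 and 1.54 kb in the RANKL libraries, 1.67, 0 and 1.71 kb in the RANKL+I-BET libraries, and 0.532 kb in the I-BET library. Untreated 3 exceeded RANKL 3, so the groups overlapped. The start lay in a peak in untreated 3 (0.764 kb wide), in all RANKL libraries (1.30, 3.24 and 1.54 kb) and in RANKL+I-BET 1 and 3 (1.07 and 1.33 kb), and in none with I-BET alone. The region over the start, chr10:19014269-19016039, had the highest median fold of the window at 3.32 and reached 8.95 in RANKL 2. No other gene lies in the window.

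Tnip1 encodes ABIN-1, an A20 partner that reads linear ubiquitin chains. The window was covered over 3.19, 0.739 and 7.45 kb untreated, 5.40, 51.4 and 7.53 kb in the RANKL libraries, 7.41, 0.549 and 10.5 kb in the RANKL+I-BET libraries, and 5.99 kb in the I-BET library. Untreated 3 lay above RANKL 1, and RANKL+I-BET 3 was the longest of the libraries not numbered 2. The domain over the start, chr11:54960906-54966095, was held by all 10 libraries with folds of 2.31 to 4.43. Inside the gene, chr11:54956843-54957315 was listed in RANKL+I-BET 1 and 3 only, with folds of 11.6 and 2.38, and was the region of highest median fold (7.01). In RANKL+I-BET 3 that fold is shared with both neighbours, because 1 peak runs across all of them. Over the same bases no RANKL library had a peak.

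Otulin encodes the deubiquitinase that cleaves linear chains. Covered lengths were 6.35, 0.179 and 6.65 kb untreated, 4.53, 19.1 and 3.82 kb in the RANKL libraries, 6.68, 0 and 3.68 kb in the RANKL+I-BET libraries, and 3.19 kb in the I-BET library. Without libraries 2 it was the 1 member with shorter coverage in both RANKL libraries than in both untreated ones, by -0.59 on the log2 scale. No share over all genes is given for that order, so it is a description of this gene only. The region over the start (chr15:27629054-27631446) did not follow that order, with 1.10 and 1.66 kb in untreated 1 and 3 and 1.28 and 2.39 kb in RANKL 1 and 3. A region within the gene did: chr15:27624547-27626596 was covered over 1.71 and 2.05 kb in untreated 1 and 3 against 0.926 and 0.61 kb in RANKL 1 and 3. The highest median fold (4.64) was at chr15:27627499-27628383, held by untreated 3, RANKL 2 and RANKL+I-BET 1.

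Cyld encodes a deubiquitinase that removes linear and lysine-63 chains. It was the least covered member in 8 of 10 libraries. Tnfaip3 had less in RANKL 2, and several members were at 0 in RANKL+I-BET 2. Its window was covered over 0.278, 0 and 0.326 kb untreated, 0.488, 11.0 and 0.845 kb in the RANKL libraries, 0.61, 0 and 0.592 kb in the RANKL+I-BET libraries, and 0 with I-BET alone. The groups untreated and RANKL did not overlap, but outside RANKL 2 no library passed 0.845 kb. All of the coverage in untreated, RANKL 1 and RANKL+I-BET libraries came from 1 region just inside the gene, chr8:88697064-88697700, with the highest median fold (2.49), while RANKL 3 also held an upstream region of 0.398 kb. The start itself, 36 bases before that region, lay in a peak in RANKL 2 alone.

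**Figure D3:**
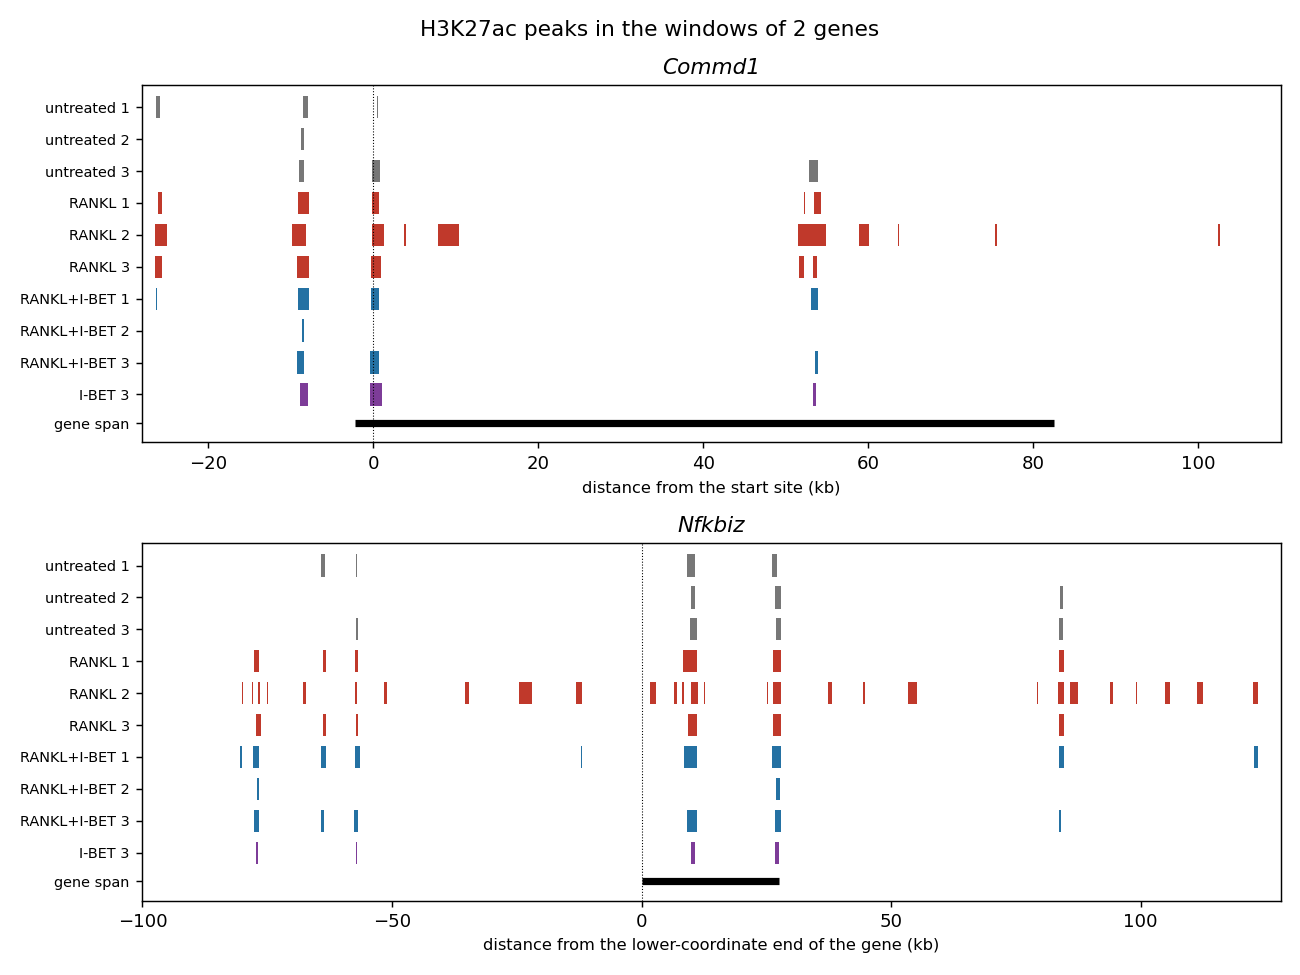
Peaks in the windows of Commd1 and Nfkbiz in each library, drawn to scale against distance in kb from the start (Commd1) or from the lower-coordinate gene end (Nfkbiz); each coloured bar is 1 peak and the black bar is the gene. About 52 kb into Commd1 the 3 RANKL libraries alone have peaks that touch 51.6 to 52.4 kb, where those of RANKL 1 (from 52.183 kb) and RANKL 3 (to 52.272 kb) overlap only in part. About 77 kb below Nfkbiz the 7 treated libraries have a peak.

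Commd1 encodes a COMM-domain protein that promotes the degradation of nuclear RelA, and a region deep inside its gene was listed in the RANKL libraries alone. The region chr11:22929885-22930680 lies 51.6 to 52.4 kb from the start and had folds of 8.55, 7.08 and 4.61 in RANKL 1 to 3. These libraries covered 0.217, 0.796 and 0.669 kb of it. The RANKL 1 peak ran from 52.183 to 52.399 kb and the RANKL 3 peak from 51.604 to 52.272 kb, so these peaks shared only a short stretch. No peak touched the region in the 3 untreated, the 3 RANKL+I-BET or the I-BET library. It was the 1 region of 43 with that pattern, and its median fold of 7.08 was the highest of the Commd1 window. This region was part of what placed Commd1 in the set, so its pattern is described and supports nothing further. Next to it, chr11:22928034-22929441 had folds of 9.14, 7.08 and 2.57 with RANKL, 2.36 in untreated 3, 3.07 and 2.16 in RANKL+I-BET 1 and 3 and 4.72 with I-BET alone. In RANKL 2 the fold is the same for both because 1 peak spans them.

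Over the whole window Commd1 was covered over 1.30, 0.448 and 2.71 kb untreated, 3.75, 12.8 and 4.68 kb in the RANKL libraries, 3.24, 0.235 and 2.26 kb in the RANKL+I-BET libraries, and 2.71 kb in the I-BET library. RANKL lay above both other groups without overlap, and I-BET alone equalled untreated 3 to within 5 bases. The groups did not part at the start, in chr11:22981213-22982634: it was in a peak in untreated 3, in all RANKL libraries, in RANKL+I-BET 1 and 3 and with I-BET alone. Upstream, chr11:22990128-22991599, which overlaps Cct4, was held by all 10 libraries. The window holds 3 other genes (Cct4, Fam161a and Zrsr1), so its covered length is not that of Commd1 alone.

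**Figure D4:**
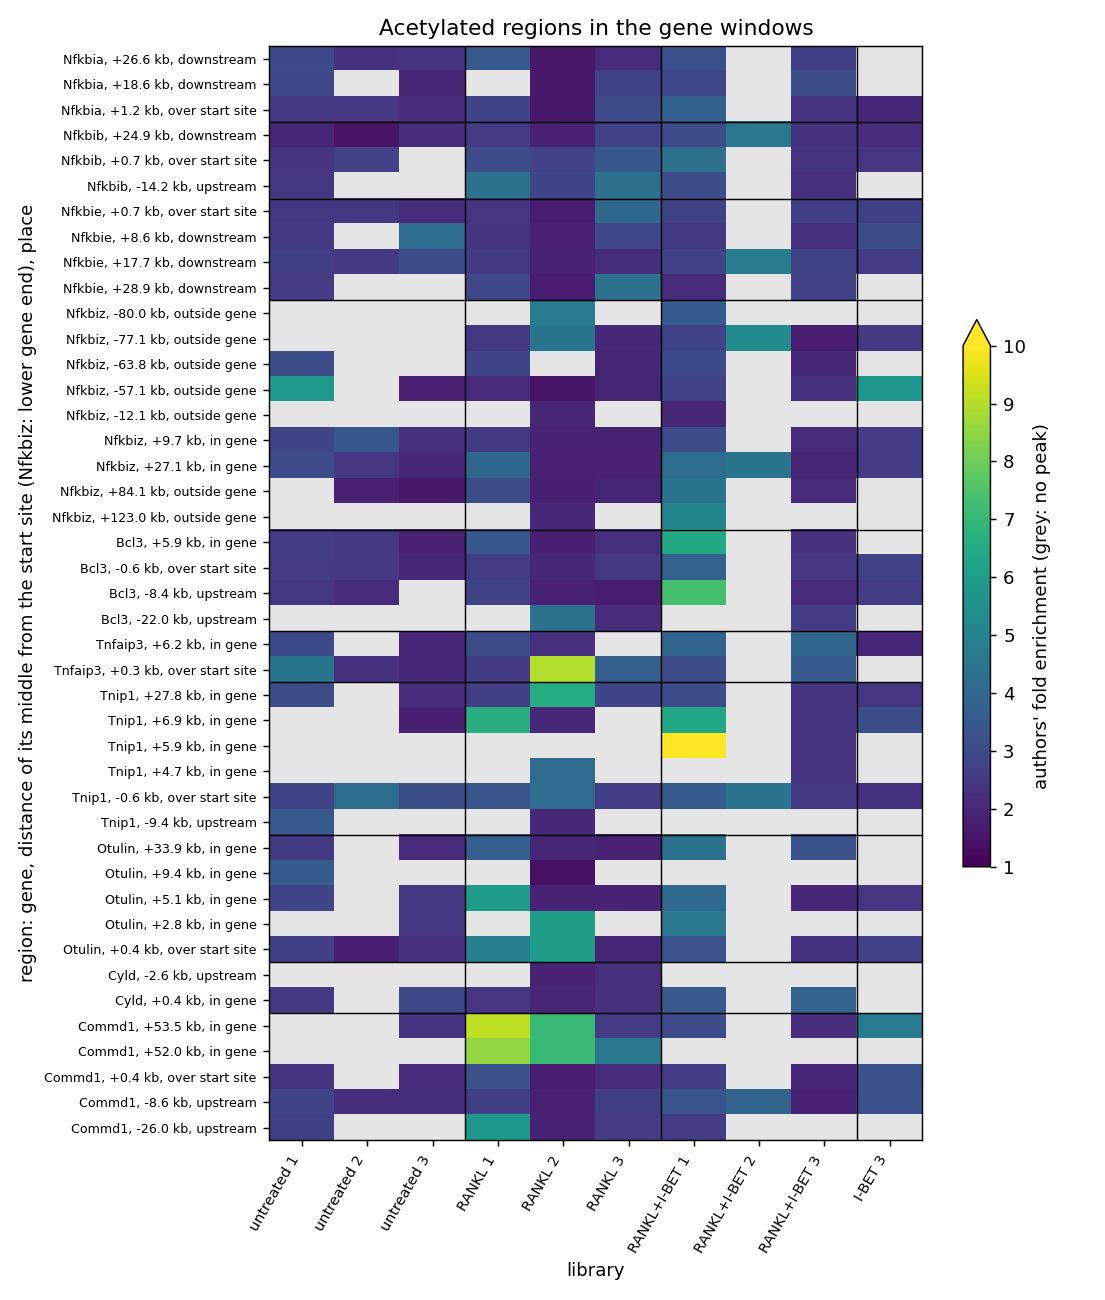
Fold enrichment of each of the 43 regions in the members' windows in each library, ordered by gene and distance from the start (for Nfkbiz, from the lower gene end); grey means no peak, and the scale is capped at 10. RANKL 2 fills 41 of the regions and RANKL+I-BET 2 fills 6, and the Commd1 region with 8.55, 7.08 and 4.61 under RANKL is grey elsewhere.

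Across the set, a region was counted where at least 2 of the 10 libraries had a peak. The members' windows held 43 such regions. Of these, 30, 16 and 26 were held by untreated 1 to 3, 32, 41 and 33 by RANKL 1 to 3, 37, 6 and 34 by RANKL+I-BET 1 to 3 and 21 by I-BET alone, and 5 were held by every library. Regions held by every RANKL and no untreated library numbered 2, at Commd1 and Nfkbiz. Over all 21013 regions 3.42% had this pattern, so the members' share is close to the background. Leaving out libraries 2 gave the same number (2), against 4.94% of all regions. The 1 region at Commd1 without any RANKL+I-BET peak compares with 1.65% of all regions. No region was lost with RANKL, either in all libraries or without libraries 2. The count of gained regions was 5 without untreated 1 (6.53% of all regions), 3 without untreated 3 (9.90%) and 4 without RANKL 1 (8.20%). Regions absent with RANKL+I-BET numbered 2 without RANKL 1 (6.24%) and 2 without RANKL+I-BET 1 (7.64%).

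Covered length in every RANKL library was above that in every untreated library for 7 members: Nfkbia, Nfkbib, Nfkbie, Nfkbiz, Bcl3, Cyld and Commd1. The same held for 33.3% of the 20193 genes with any peak in their window, and for 51.4% of the 10745 genes that were covered in all 7 libraries not numbered 2. Without libraries 2 the 7 genes were the same, against 34.4% of all genes and 53.0% of the always covered ones. An exact test of 3 against 3 libraries could not go below p = 0.1, and none was run. The median difference for the 10 members was 0.53 on the log2(bp + 500) scale without libraries 2, beside 0.24 over all genes and 0.40 over the always covered ones. When each gene was ranked among all genes of its library, 0 of the 10 stood apart, and 0 did when all lists were reduced to the length of the shortest. At that length the difference was negative for 6 members: Nfkbib, Nfkbie, Nfkbiz, Bcl3, Tnfaip3 and Tnip1. It was positive for Otulin (0.71) and Commd1 (1.09), and 0 for Nfkbia and Cyld, which kept no untreated or RANKL peak. At 3 of the negative members no RANKL library kept a peak and a single untreated library did. These were untreated 3 at Nfkbie (0.516 kb), untreated 2 at Bcl3 (0.655 kb) and untreated 1 at Tnfaip3 (0.141 kb). With libraries 2 left out and the rest at one length, 3 members (Nfkbib, Tnfaip3 and Commd1) stood apart, against 16.7% of all genes. Of these, Tnfaip3 was not among the 7 named above.

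With RANKL and I-BET, 3 members (Nfkbia, Nfkbie and Commd1) had less coverage in every library than in every RANKL library, beside 19.1% of all genes and 28.8% of the always covered ones. Without libraries 2 the same 3 were called, against 19.5% of all genes. By rank, or with all lists at one length, 0 were. The count was 5 without RANKL 1 (36.3% of all genes), 5 without RANKL 3 (28.6%) and 6 without RANKL+I-BET 1 (37.0%). Without libraries 2 the median difference from RANKL was -0.10, with 0 over all genes and -0.12 over the always covered genes. No member had RANKL+I-BET above untreated in all libraries (0.307% of genes) or below it (0.0396%), a comparison that RANKL+I-BET 2 decides: without libraries 2, 5 members (Nfkbib, Nfkbie, Nfkbiz, Bcl3 and Cyld) lay above, with 21.9% of all genes and 35.2% of the always covered ones. The comparisons with RANKL and with untreated share their libraries.

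At the starts, 9 members have a listed start (the first of those listed was used), and 3, 1 and 6 of these lay in a peak in untreated 1 to 3, against 8, 9 and 8 with RANKL, 8, 1 and 6 with RANKL and I-BET and 5 with I-BET alone. Over 17492 genes with a listed promoter, the share with the start in a peak was 15.9, 12.7 and 27.96% untreated, 31.7, 63.7 and 34.5% with RANKL, 31.2, 5.98 and 28.4% with RANKL and I-BET and 24.9% with I-BET alone. Nfkbia, Tnip1 and Otulin were in a peak in every library not numbered 2. Starts in a peak in RANKL 1 and 3 and in neither untreated 1 nor 3 numbered 2 (Nfkbib and Nfkbie), with 4.73% of genes. No member's start was in a peak in every RANKL and no RANKL+I-BET library, a pattern of 1.66% of genes. In I-BET 3, 5 members (Nfkbia, Nfkbiz, Tnfaip3, Otulin and Cyld) were covered over less than in untreated 3 by at least 1.5 times, with 20.0% of the 12468 genes covered in untreated 3. Nfkbib went the other way, at 2.21 against 1.02 kb. These are single libraries with no replicate of I-BET alone.

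**Figure D5:**
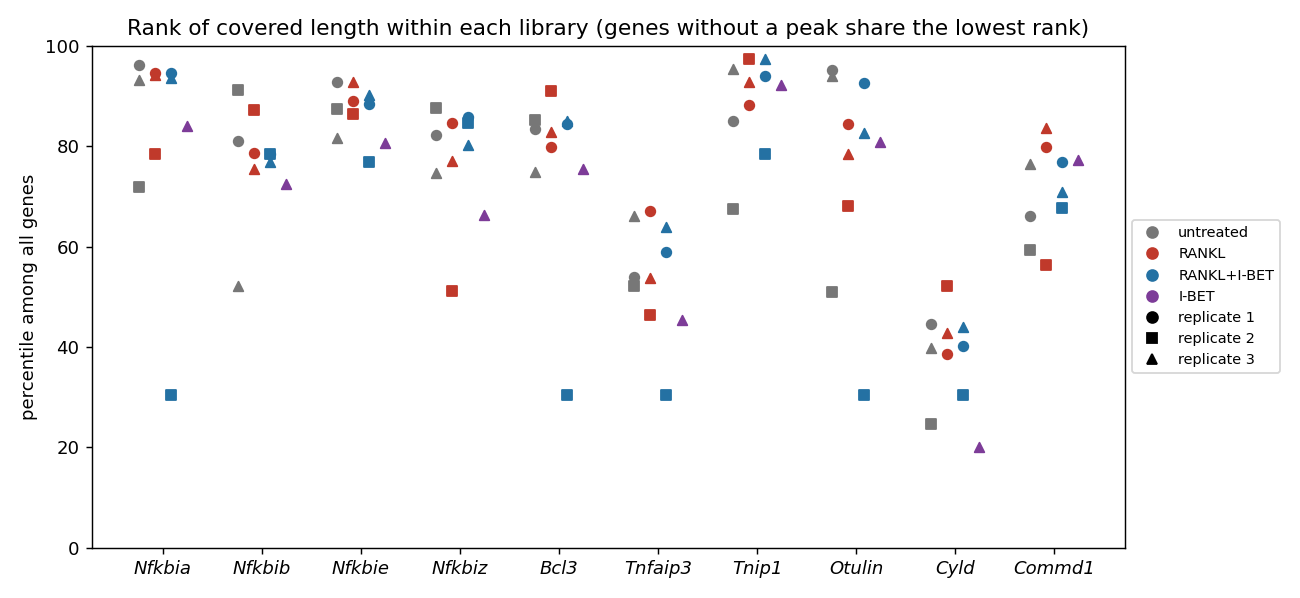
Rank of each member's covered length among all protein-coding genes of the same library (percentile; 25 kb flanks for every gene, Nfkbiz included). Nfkbia sits at 96.2, 71.9 and 93.2 untreated and 94.7, 78.5 and 94.3 with RANKL, with overlapping groups, and genes without a peak share the lowest rank.

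Ranks within a library place the members among all genes of that library. Nfkbia ranked at the 96.2, 71.9 and 93.2 percentiles untreated and at 94.7, 78.5 and 94.3 with RANKL. Commd1 ranked at 66.1, 59.4 and 76.4 untreated, at 79.9, 56.4 and 83.7 with RANKL and at 76.9, 67.7 and 70.8 with RANKL and I-BET, so outside libraries 2 its RANKL ranks were the highest. Tnip1 ranked at 85.1, 67.6 and 95.4 untreated, at 88.3, 97.3 and 92.7 with RANKL and at 94.0, 78.5 and 97.5 with RANKL and I-BET. Cyld stayed between 20.1 (I-BET alone) and 52.1. Otulin ranked at 95.3 and 94.1 in untreated 1 and 3 and at 84.5 and 78.4 in RANKL 1 and 3.

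The rest of the pathway was counted in the same way. Of 44 other genes, 22 had more coverage in every RANKL than in every untreated library, and 20 had less in every RANKL+I-BET than in every RANKL library. Without libraries 2 the counts were 23 and 20. Among the NF-kB subunits 4 of 5 (Nfkb1, Nfkb2, Rela and Relb) did both, for example Nfkb2, the precursor of p52, with 1.05, 0.161 and 2.12 kb untreated, 3.04, 35.0 and 3.39 kb in the RANKL libraries and 2.79, 0.304 and 1.53 kb in the RANKL+I-BET libraries. All 3 genes of the linear ubiquitin ligase, which builds the chains that Otulin cuts, did both as well. In the IKK complex Chuk and Ikbkb stood above with RANKL, and Chuk was lower than RANKL in every RANKL+I-BET library. Of 12 adaptors and kinases 3 (Traf2, Traf3 and Map3k7) stood above. Other inhibitors and deubiquitinases gave 7 of 12 above and 6 of 12 below, among them Nkrf, a repressor of NF-kB, with 0.532, 0 and 0 kb untreated, 2.88, 4.12 and 2.33 kb in the RANKL libraries and 1.5, 0 and 0.377 kb in the RANKL+I-BET libraries. Of 9 further COMMD genes, 3 stood above (Commd4, Commd5 and Commd10) and 4 below. These lists were drawn up with results of these data known. Their shares stand beside 33.3% and 19.1% of all genes, and 51.4% and 28.8% of the always covered ones. No share over all genes is given for doing both.

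The window borders set which peaks were counted. Just inside, the downstream Nfkbia region lies 161 bases from the edge. Just outside, chr11:54884490-54885490 lies 296 bases beyond the Tnip1 window and was held by 3 libraries with a median fold of 2.97.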

How the data were processed

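H3K27ac ChIP-seq peak lists of 10 libraries were used, 1 list a library. Per the submitters' processing notes, reads were handled with FastQC, Bowtie2 and MACS2 on mm10/GRCm38; peak calling settings and the use of input DNA are not given in the sources used here. The deposited lists give each peak's position, a score, a fold enrichment (a ratio), and a −log10 p-value and −log10 q-value, all as the authors' peak caller wrote them. They hold no read counts, so depth is unknown and no interval could be given.

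For each gene, the length of the window covered by merged peaks was computed with Python 3.11.15, numpy 2.4.6 and pandas 2.3.3, and checked on simulated intervals. Regions are bases covered in at least 2 libraries. Gene spans, starts and promoters came from RefSeq on GRCm38. Group values were compared as log2(bp + 500). Groups were called apart when they did not overlap. Alternatives were a common covered length, leaving out libraries, a −log10 q of at least 5, other windows, ranks, and a replicate block. All 10 members were named, with the region over the start, that of highest median fold and those gained or lost. The members and lists were chosen with earlier results of these data known. Deviations from group means correlated across genes at 0.123 to 0.659 for the same-numbered pairs. For pairs of unlike number the range was -0.579 to 0.411, with the highest for untreated 3 and RANKL+I-BET 1. The ranges overlap, so these values do not settle whether replicate numbers pair the libraries. The replicate block rests on the data and not on a pairing given by the labels.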

Additional observations from a re-analysis of the deposited data

How the results depend on the processing

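Peak lists without read counts leave the depth unknown, and covered length follows the length of the list. At one covered length for all lists, 0 members stood above untreated with RANKL (7 as deposited) and 0 below RANKL with RANKL+I-BET (3 as deposited), beside 0.624% and 0.578% of all genes. The log2 difference of RANKL from untreated then changed sign for Nfkbib (-0.40), Nfkbie (-0.34), Nfkbiz (-1.33), Bcl3 (-0.40), Tnfaip3 (-0.12) and Tnip1 (-0.92). That of RANKL+I-BET from RANKL changed sign for Nfkbie (0.34), Nfkbiz (1.04), Bcl3 (0.80), Tnfaip3 (0.71), Tnip1 (0.57) and Cyld (0.38). Few peaks were left at that length, and Nfkbie, Bcl3, Tnfaip3 and Cyld kept none in any RANKL library. Nfkbie, Bcl3 and Tnfaip3 kept a peak in a single untreated library. All 4 kept peaks in a single RANKL+I-BET library. With libraries 2 left out and one length, the counts were 3 (Nfkbib, Tnfaip3 and Commd1) and 1 (16.7% and 14.1% of all genes). At that setting 2 members lay apart from untreated with RANKL+I-BET (25.9%). Signs then changed against untreated for Nfkbie (-1.46), Nfkbiz (-1.20), Otulin (-2.14) and Cyld (-0.22), and against RANKL for Nfkbia (0.40), Nfkbiz (0.24), Bcl3 (1.14), Otulin (1.51) and Cyld (0.68). With libraries 2 left out at the deposited lengths, signs changed for Otulin against untreated (-0.59) and against RANKL for Nfkbiz (0.09), Bcl3 (0.04), Tnip1 (0.44) and Otulin (0.23), and 5 members (23.9% of all genes) lay apart from untreated with RANKL+I-BET instead of 0. Ranks gave 0 and 0 (2.95% and 3.42%), and a −log10 q of at least 5 gave 2 and 1 (13.1% and 8.502%). Leaving out single libraries gave 7 to 9, 3 to 6 and 0 to 5 members for these comparisons, the 5 without RANKL+I-BET 2 (21.5%). The share of all genes rose as well: 9 members stood above untreated without untreated 3 (50.9% of all genes). There were 8 without RANKL 1 (48.6%) and 8 without RANKL 3 (41.1%). Below RANKL, 6 members were called without RANKL+I-BET 1 (37.0%). Regions gained with RANKL were 2 to 5 and those absent with RANKL+I-BET 1 to 2 when single libraries were left out. Requiring 50% of a region gave 4 and 2 (6.43% and 2.72% of all regions), but these were other regions than those named above at Commd1 and Nfkbiz. RANKL 1 covered 217 of the 796 bases at Commd1, and RANKL 2 covered 440 of the 1271 bases at Nfkbiz. The q threshold gave 2 absent regions (3.16%). The replicate block gave 8 members above untreated, with Tnip1 added (46.5% of all genes), and 4 below RANKL, with Nfkbib added (28.1%). It gave 0 apart from untreated with RANKL+I-BET (6.84%). The cause of these changes was not tested beyond the settings themselves.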
